A study of Mus musculus with 9 samples.

Results

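The genes described here encode the nuclear subunits of the 5 complexes of oxidative phosphorylation, measured by RNA sequencing of mouse left ventricle. Members were taken by symbol, as genes whose names start with Ndufa, Ndufb, Ndufc, Ndufs or Ndufv (assembly factors left out), Sdha to Sdhd, Uqcr, Cyc1, Cox4 to Cox8 or Atp5, with 13 pseudogenes and genes named as such left out. The rule gave 86 of the 52636 genes in the table, with 38 in complex I, 4 in complex II, 9 in complex III, 18 in complex IV and 17 in complex V. Of these, 84 passed the filter on low counts. Cox7b2 had at most 11 counts in any library, and Cox8c had 0 counts in all 9. Both are known as testis forms.

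The inner mitochondrial membrane carries the respiratory chain. Complex I takes electrons from NADH and complex II from succinate, complex III passes them to cytochrome c, complex IV passes them to oxygen, and the proton gradient that complexes I, III and IV build is used by complex V, the ATP synthase. The heart is known for very high levels of these proteins, which are encoded partly in the nucleus and partly in mitochondrial DNA. Several complex IV subunits exist as a heart and skeletal muscle form and a form found in most tissues.

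All 9 libraries came from C57BL6J mice at 16 weeks of age. In the study, VDAC2 KO mice carried a floxed Vdac2 allele on both chromosomes and an αMHC-Cre transgene, which acts in cardiac myocytes, so that other cells of the ventricle keep the gene. WT mice were littermates that carried the floxed allele or the transgene but not both together, and both sexes entered the study. Libraries 1 to 5 are labelled VDAC2 WT and libraries 6 to 9 VDAC2 KO. Vdac2 encodes the outer membrane channel that the study deleted.

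The level of Vdac2 went against these labels. It was 20.1 CPM (counts scaled to the size of the library) in library 1 and 21.3 CPM in library 5, both labelled WT, and 20.5 CPM in library 7 and 19.1 CPM in library 9, both labelled KO. It was 366 CPM in library 2 and 365 CPM in library 4, both labelled WT, and 384 CPM in library 6 and 421 CPM in library 8, both labelled KO. Library 3, labelled WT, was at 58.5 CPM and was the lowest or the highest of the 9 in most genes. Libraries are therefore named by number and by deposited label, and only the labels were tested. The sets called Vdac2-low (libraries 1, 5, 7 and 9, under 100 CPM) and Vdac2-high (libraries 2, 4, 6 and 8, over 300 CPM) were chosen by the measured Vdac2 level and not by a label, so their differences are given as a description, without a test, and library 3 is shown apart. Each label holds 2 Vdac2-low and 2 Vdac2-high libraries. Lane coincides with label. So does Xist, which ran from 335 to 587 CPM under the KO label and did not exceed 0.152 CPM under the WT label, so label, lane and sex cannot be told apart.

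Heart and general forms of complex IV subunits had unlike levels in library 3, so the 250 bases before the start of 5 of their genes are shown first, 5′ to 3′ on the strand of the gene, from RefSeq on GRCm38.p6. Cox6a1 encodes the general form of subunit 6a, Cox7a1 and Cox7a2 the heart and general forms of subunit 7a, and Cox8b and Cox8a those of subunit 8. Capitals mark matches on either strand to the NRF1 motif, CCGGAAG (ETS factors), AAGATGGC (YY1), AAGGTCA (estrogen-related receptors), CCAAT and GGGCGG (SP1), and none of the matches shown overlap.
Cox6a1, chr5:115348959-115349208, minus strand: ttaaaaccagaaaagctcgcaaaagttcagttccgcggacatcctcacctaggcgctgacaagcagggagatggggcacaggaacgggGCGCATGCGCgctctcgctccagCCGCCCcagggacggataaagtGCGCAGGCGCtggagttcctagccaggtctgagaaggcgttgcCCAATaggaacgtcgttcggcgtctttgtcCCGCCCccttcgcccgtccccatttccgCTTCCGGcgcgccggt
Cox7a1, chr7:30183921-30184170, plus strand: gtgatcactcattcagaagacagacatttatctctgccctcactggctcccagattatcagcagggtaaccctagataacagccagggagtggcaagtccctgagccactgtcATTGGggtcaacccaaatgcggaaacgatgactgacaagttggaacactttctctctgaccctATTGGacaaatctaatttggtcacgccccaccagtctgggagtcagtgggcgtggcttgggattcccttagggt
Cox7a2, chr9:79759854-79760103, minus strand: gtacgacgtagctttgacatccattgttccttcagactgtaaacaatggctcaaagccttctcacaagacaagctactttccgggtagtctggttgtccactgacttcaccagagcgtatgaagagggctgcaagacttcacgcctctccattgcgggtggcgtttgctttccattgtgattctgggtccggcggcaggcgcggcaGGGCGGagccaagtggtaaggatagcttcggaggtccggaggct
Cox8b, chr7:140900447-140900696, minus strand: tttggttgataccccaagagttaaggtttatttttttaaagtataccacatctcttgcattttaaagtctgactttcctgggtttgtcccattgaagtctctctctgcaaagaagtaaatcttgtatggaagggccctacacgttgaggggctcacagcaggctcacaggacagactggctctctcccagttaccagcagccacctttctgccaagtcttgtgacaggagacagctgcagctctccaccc
Cox8a, chr19:7217617-7217866, minus strand: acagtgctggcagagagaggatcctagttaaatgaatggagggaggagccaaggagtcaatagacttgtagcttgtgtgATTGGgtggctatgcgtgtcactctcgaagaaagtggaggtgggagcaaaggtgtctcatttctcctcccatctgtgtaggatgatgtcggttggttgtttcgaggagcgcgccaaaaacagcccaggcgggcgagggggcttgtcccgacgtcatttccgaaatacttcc
The Cox6a1 window held 26 CpG dinucleotides and 2 NRF1 motifs. The Cox7a1 window held 4 CpG and 2 CCAAT boxes, and the Cox8b window held 1 CpG and none of the 6 motifs. Cox7a2 had 14 CpG and Cox8a 11. The median was 14 CpG over the 69 members with a promoter in the table and 10 over all 17492 protein-coding promoters.

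Over those 69 members, the NRF1 motif was found in 12 promoters, 17.4%, against 5.32% of all protein-coding promoters. Those 12 were Sdha, Sdhd, Cox6a1, Ndufa5, Ndufa8, Ndufa11, Ndufb4, Ndufs5, Ndufs6, Atp5g2, Atp5h and Atp5k. The ETS motif was in 15.9% of the members' promoters against 9.15% of all, and the motif of the estrogen-related receptors in 7.25% against 3.55%. CCAAT was in 43.5% against 36.5%, GGGCGG in 36.2% against 42.7%, and AAGATGGC in 0 of the 69 against 1.5%. These are matches of letters in a fixed window and do not show binding.

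Levels between genes were compared per length, as RPKM (CPM divided by the length of all annotated exons of the gene). That length can exceed the length of a single transcript, so the ranks between genes depend on it. By the median over the 8 libraries other than library 3, the highest members were Atp5a1 at 1350 RPKM and Atp5b at 1079 RPKM, which encode the alpha and beta subunits that form the catalytic head of ATP synthase, and the 3 heart forms Cox8b at 1183 RPKM, Cox6a2 at 1084 RPKM and Cox7a1 at 1072 RPKM. Next came Cox6b1 at 967 RPKM and Cox4i1 at 829 RPKM, also of complex IV. In complex I the highest was Ndufb9 at 592 RPKM, and in complex III Uqcrfs1, the Rieske iron-sulfur protein, at 523 RPKM. Complex II was lower, from 113 RPKM for Sdhc to 369 RPKM for Sdhd. The ATP synthase c-ring is encoded by 3 genes for the same mature protein, of which Atp5g3 was at 284 RPKM, Atp5g1 at 9.98 RPKM and Atp5g2 at 0.569 RPKM. Cox6b2, the testis form of subunit 6b, was at 0.429 RPKM. The annotated exons span 4237 bases in Atp5b and 3135 bases in Atp5a1. By CPM, Atp5b was above Atp5a1 in every library, so the order of these genes depends on the length used.

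Some low values are uncertain, because many of these genes share sequence with other genes. The sources used here do not say how reads that align to several places were counted. Of the 495 different 50-base stretches in the coding transcripts of Atp5l, subunit g of ATP synthase, 84.8% also occur in transcripts of other genes. Atp5l was listed at 2.51 RPKM, and its annotated exons span 6443 bases, so length bears on that value too. The share was 47.6% for Atp5o, 43.4% for Uqcrb, 39.7% for Ndufs3, 38.4% for Atp5g2, 37.5% for Atp5f1, 37.0% for Ndufb4 and 36.9% for Atp5h. It was lower but still sizeable for others, such as Cox5a at 32.0%, Ndufb6 at 31.6%, Ndufa13 at 28.5%, Ndufa12 at 26.2% and Cox7c at 23.0%, the last listed at 4.28 RPKM. Sdha, Cyc1, Cox7a1, Cox7a2, Cox8a and Cox8b shared none. These shares count any other gene, on either strand, with genes that overlap the member included. In annotated pseudogenes alone the share was 68.5% for Atp5l and 22.5% for Atp5f1. It was 13.8% for Atp5o, 3.36% for Cox5a, 1.41% for Ndufa13 and 0% for Ndufb6. For the other genes listed it was close to the full share.

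The deposited labels were compared first, with all 9 libraries kept. This does not repeat the study's comparison, which left out a WT library. The study reports higher Nppa and Col3a1 in KO mice. Between the labels, with library 3 included, their log2 fold changes were -0.81 (SE 1.31) and -1.17 (SE 0.77). Their differences, Vdac2-low minus Vdac2-high, were 2.74 and 0.88. Of the 16322 genes tested with edgeR's quasi-likelihood test, 9 passed an adjusted p of 0.05 between the labels, or 0.0551%, and none was a member. An unadjusted p under 0.05 was reached by 6.11% of all genes and by 0 of the 84 members, and the lowest adjusted p of a member was 0.679. DESeq2 and limma voom with library weights, which called 70 and 79 genes, also called 0 members. The median log2 fold change of the members was 0.27, KO label minus WT label, with 81 of 84 above 0. Over all genes the median was -0.02, with 7717 of 16322 above 0. Library 3 carried most of the members' median, which was 0.07 without it, and then 1 member had an unadjusted p under 0.05, with 62 genes and 0 members called. These p-values measure the spread between these libraries. Markers of cell types differed between the labels too, with library 3 included, and edgeR called 0 of them. Of 12 cardiomyocyte markers 11 were higher under the KO label, with a median of 0.40. Of 8 fibroblast markers 1 was higher, with a median of -0.74, and of 6 macrophage markers 1, with a median of -0.94. The endothelial median was -0.03. The part of these markers in the members' shift was not tested.

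Cox5b, a nuclear subunit of complex IV that binds zinc, had the smallest p of any member. Libraries 1 to 5 had 204, 229, 82.4, 235 and 223 CPM and libraries 6 to 9 had 240.2, 239.9, 290 and 292 CPM, so that all 4 libraries labelled KO lay above all 5 labelled WT. The log2 fold change was 0.45 (SE 0.27), with an adjusted p of 0.679 by edgeR. Cox8a followed with 0.14 (SE 0.09, edgeR adjusted p 0.680) and Atp5d, the delta subunit of the central stalk of ATP synthase, with 0.32 (SE 0.22, edgeR adjusted p 0.682). Without library 3 the fold changes were 0.25 for Cox5b, 0.11 for Cox8a and 0.16 for Atp5d. The X-linked members were not called either. Ndufa1 had a log2 fold change of 0.27 (SE 0.27), Ndufb11 of 0.30 (SE 0.27) and Cox7b of 0.24 (SE 0.29), near the median of the members, and 0.08, 0.10 and 0.04 without library 3.

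Between the Vdac2 sets the subunit genes differed little and mostly in one direction. The difference of mean log2(CPM + 0.5), Vdac2-low minus Vdac2-high, was below 0 in 70 of the 84 members and in 49.7% of all genes. Its median was -0.08 (-5.58%), with a range from -0.31 to 0.14, and the median over all genes was close to 0 at 8.05e-04. In 8 members the 4 Vdac2-low libraries all lay under the 4 Vdac2-high ones, against 4.93% of all genes, and in 0 members all lay above, against 7.16%. In 19 members the Vdac2-low libraries lay below within the WT label and again within the KO label, against 8.58% of all genes, and in 0 they lay above within both, against 11.3%. The median was -0.09 within the libraries labelled WT and -0.08 within those labelled KO.

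One library set how many members separated. Library 9 was the highest of the Vdac2-low libraries in the summed level of the members, and without it 32 members lay below without overlap, against 8.3% of all genes. Scaled by total counts alone, an alternative chosen after the data were seen, 54 members were below 0, 2 of them without overlap, and 1 lay above without overlap. The shares of all genes without overlap were then 2.65% below and 11.3% above, so that the 2 members below were near the background. The median difference was then 0.05 over all genes and -0.03 over the members.

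**Figure D1:**
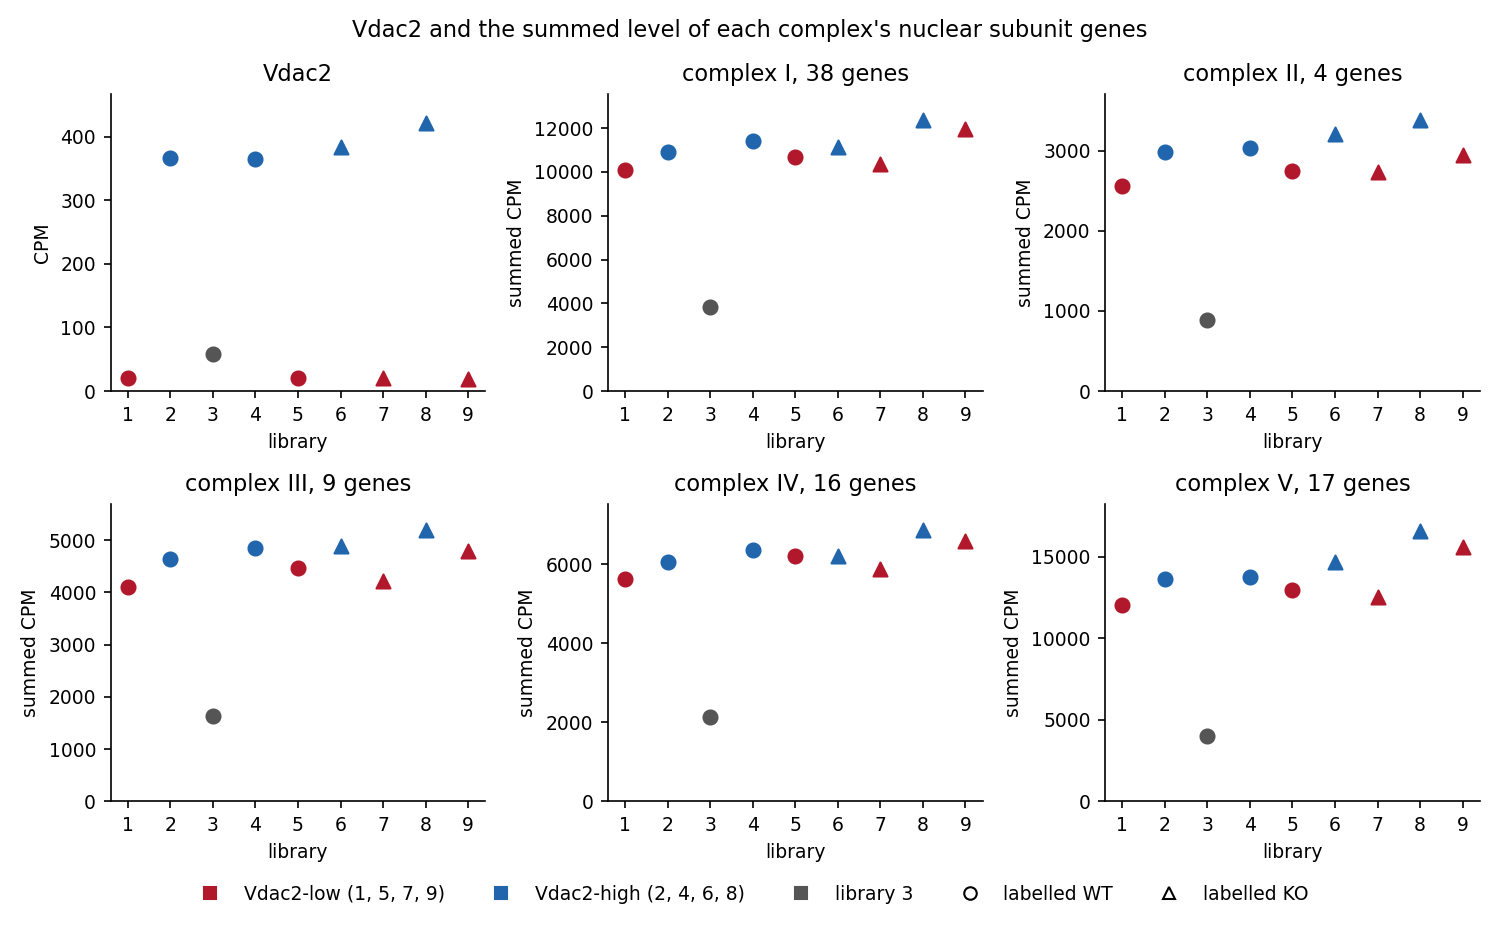
Vdac2 level and the summed level of each complex's tested subunit genes (CPM, linear axes from 0) in libraries 1 to 9, with colour for the Vdac2 set and shape for the deposited label. Complex II is the one whose Vdac2-low and Vdac2-high libraries do not overlap, and library 3 is lowest in all 5 complexes.

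Complex II showed the widest gap of the 5 complexes. Its 4 genes summed to 2564, 2747, 2732 and 2945 CPM in libraries 1, 5, 7 and 9 and to 2985, 3036, 3203 and 3380 CPM in libraries 2, 4, 6 and 8. These ranges did not overlap, while those of the other 4 complexes did, and library 3 was at 890 CPM. The median difference over the 4 genes was -0.21.

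Sdhc, a membrane anchor of complex II, had the lowest difference of any member at -0.31. It was at 278, 334, 314 and 364.5 CPM in libraries 1, 5, 7 and 9, at 368, 388, 397 and 442 CPM in libraries 2, 4, 6 and 8, and at 109 CPM in library 3. The sets did not overlap, with library 9 just below library 2. Sdha, the flavoprotein that oxidises succinate, was at 1200, 1269, 1244 and 1268 CPM in the Vdac2-low libraries, at 1383, 1402, 1497 and 1572 CPM in the Vdac2-high ones and at 379 CPM in library 3. The difference was -0.23, and the sets lay well apart. Sdhb, the iron-sulfur subunit, had a difference of -0.18 with overlap in library 9, which reached 815 CPM against 784 CPM in library 4. Sdhd, the other anchor, had -0.05, and its sets overlapped.

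Complex I had a median difference of -0.08 over 38 genes, and 2 of them separated, a share near the 4.93% of all genes. Ndufab1, the mitochondrial acyl carrier protein, was at 36.5, 41.5, 39.2 and 35.4 CPM in libraries 1, 5, 7 and 9, at 46.4, 44.6, 46.7 and 44.9 CPM in libraries 2, 4, 6 and 8 and at 17.8 CPM in library 3. Ndufb2, a small accessory subunit whose exons overlap another annotated gene on the same strand, was at 101, 110, 101 and 104 CPM in the Vdac2-low and at 113, 116, 112 and 123 CPM in the Vdac2-high libraries. In both genes the separation was small beside the levels themselves, at -0.26 and -0.16.

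Subunits of complex I that carry its flavin or iron-sulfur clusters had mean differences below 0 with overlap. Ndufs1, which holds several of the clusters, was at 841, 875, 872 and 1015 CPM in libraries 1, 5, 7 and 9 and at 974, 1042, 1001 and 1221 CPM in libraries 2, 4, 6 and 8, a difference of -0.23 with library 9 inside the Vdac2-high range. Ndufs7, next to the quinone site, had -0.22, Ndufs8 -0.14 and Ndufv1, the flavoprotein that binds NADH, -0.14. Ndufs7 was below within each label, and Ndufs1, Ndufs8 and Ndufv1 were not. Ndufv2, which also carries a cluster, had -0.03, with 0.03 within the KO label. At the other end stood Ndufa11, a membrane subunit, with 0.12 and libraries 1, 5, 7 and 9 at 170, 177, 168 and 208 CPM against 161, 170, 171 and 159 CPM.

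Complex III had a median difference of -0.13 over its 9 genes, 8 of them below 0. Cyc1, cytochrome c1, was at 398, 426, 383 and 439 CPM in libraries 1, 5, 7 and 9 and at 446, 451, 492 and 480 CPM in libraries 2, 4, 6 and 8, without overlap. Uqcr11, a small subunit, was at 295, 305, 294 and 319 CPM against 320.4, 320, 327 and 363 CPM, with library 9 just below library 4. The core protein Uqcrc1 had -0.23, Uqcrc2 -0.20 and Uqcrfs1 -0.19, all below within each label and overlapping across them. Uqcrb, at 0.08, was the gene above 0, and a large share of its sequence occurs in other genes.

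**Figure D2:**
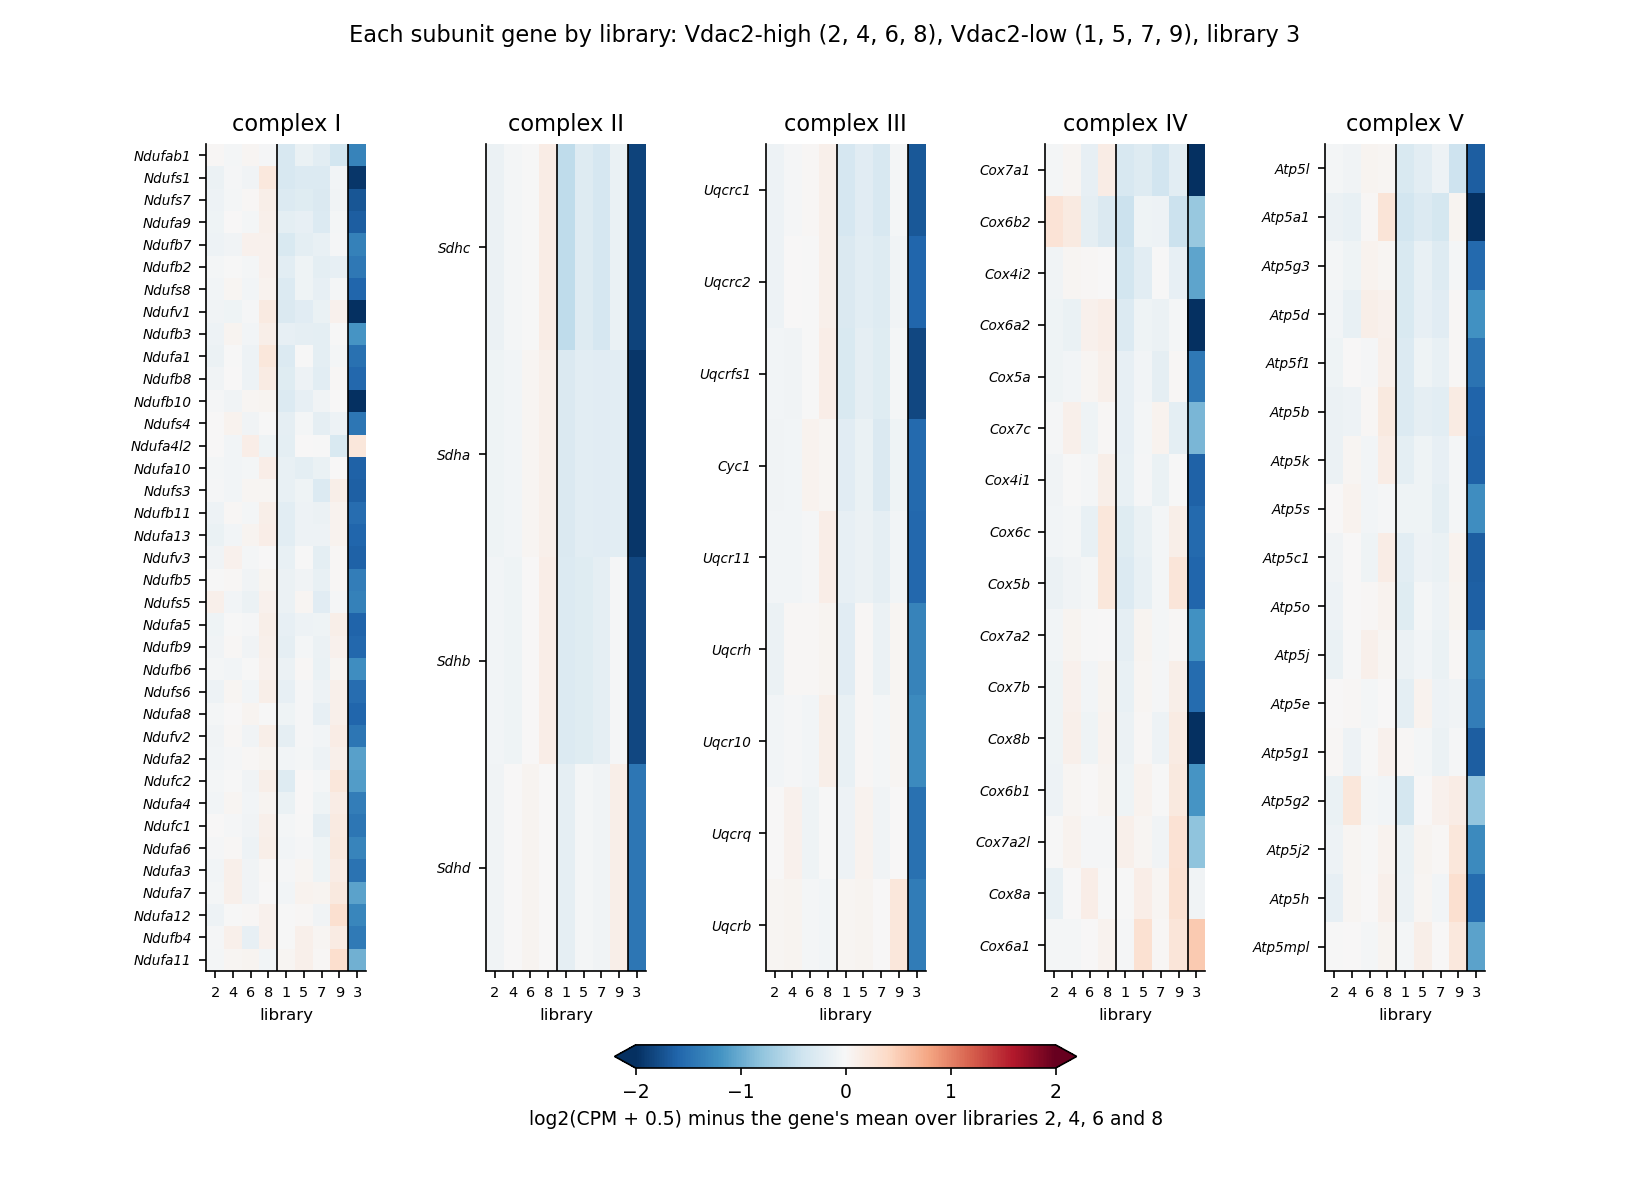
Tested subunit genes (rows, all but 1, by complex, ordered by the difference Vdac2-low minus Vdac2-high) in each library (columns), coloured by log2(CPM + 0.5) minus the gene's mean in libraries 2, 4, 6 and 8, with colours saturating at 2 units either way. The Vdac2-low columns are pale beside that of library 3, with library 9 above 0 in its median at 0.03, while the library 3 column is clearly blue for all genes but Cox6a1, Cox8a and Ndufa4l2.

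Complex IV had the smallest median difference at -0.07, and its members spread in both directions. Its median was -0.003 without library 1 and -0.009 within the KO label. Without library 7 the median of complex I was smaller, at -0.05 against -0.06. Cox7a1, the heart form of subunit 7a, was at 519, 543, 496 and 564 CPM in libraries 1, 5, 7 and 9, at 634, 671, 583 and 720 CPM in libraries 2, 4, 6 and 8 and at 114 CPM in library 3. That was the second lowest difference of all members, -0.29. Of the 16 tested genes of complex IV only Cox7a1 separated, a share near the 4.93% of all genes. Cox7a2, the general form, had -0.04 with overlap, and Cox7a2l, counted here with complex IV by its name, had 0.10.

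Cox6a2, the heart form of subunit 6a, had -0.13 and Cox6a1, the general form, had the highest difference of any member at 0.14. Cox6a1 was at 43.6, 54.9, 44.97 and 52.5 CPM in libraries 1, 5, 7 and 9 and at 43.3, 42.8, 44.6 and 46.5 CPM in libraries 2, 4, 6 and 8. The Vdac2-low values of libraries 5 and 9 lay above the rest, and those of libraries 1 and 7 lay within them. Cox8a had 0.12 and Cox8b -0.004, both with overlap. Cox4i1, the main form of subunit 4, and Cox5a had -0.08 and -0.09. Cox4i2, the form known for its response to oxygen and its place in lung, had -0.19 at 4.04 to 5.48 CPM. Cox6b2 had -0.26 at under 1 CPM in every library, with overlap, and Cox6b1 had 0.04.

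Complex V had a median difference of -0.10 over 17 genes. Atp5l separated the sets, at 13.8, 14.8, 15.9 and 12.9 CPM in libraries 1, 5, 7 and 9 against 16.8, 16.4, 17.9 and 17.8 CPM, with the limit on its shared sequence given above. Of the 17 genes only Atp5l separated, a share near the 4.93% of all genes. Atp5a1 was at 3605, 3833, 3663 and 4834 CPM in the Vdac2-low libraries and at 4281, 4181, 4706 and 5561 CPM in the Vdac2-high ones. Its difference was -0.23, and library 9 lay inside the other set. Atp5b had -0.12 and Atp5c1, the gamma subunit that forms the rotating stalk, -0.10, both with overlap. Of the c-ring genes Atp5g3 had -0.19 and was below within each label, Atp5g1 had -0.04 and Atp5g2 -0.03.

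**Figure D3:**
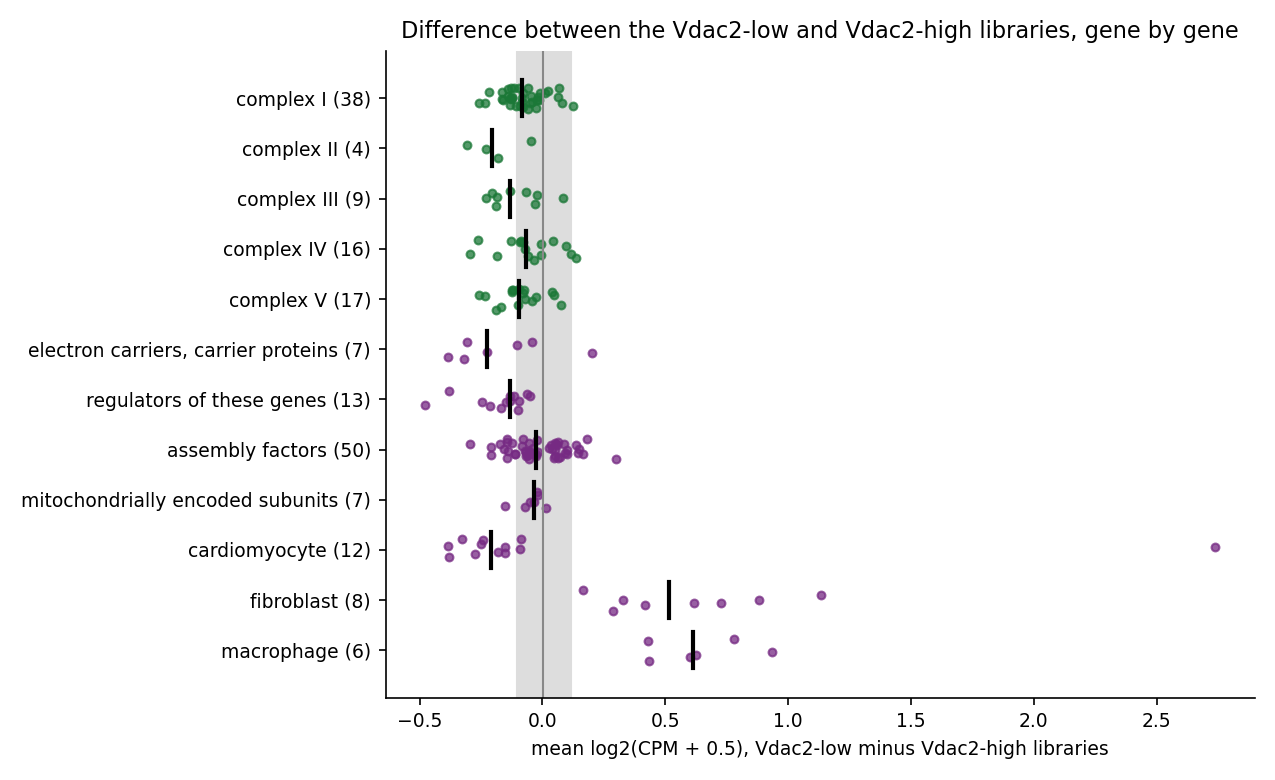
Difference of mean log2(CPM + 0.5), Vdac2-low minus Vdac2-high libraries, for each tested gene (points) of the 5 complexes, in green, and of other lists, in purple, with the number of genes in parentheses and a black bar at each median. The grey band holds the middle 50% of all tested genes and the grey line their median, and the medians of the 5 complexes run from -0.21 to -0.07.

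Genes that work beside the subunits were taken from fixed lists. Of 7 genes for electron carriers and inner membrane carriers, 6 were below 0 between the Vdac2 sets, with a median of -0.22, and 3 lay below without overlap, against 49.7% and 4.93% of all genes. Those 3 pass electrons from fatty acid oxidation to the chain. Etfdh was at 684, 707, 654 and 728 CPM in libraries 1, 5, 7 and 9 and at 914, 933, 826 and 954 CPM in libraries 2, 4, 6 and 8, a difference of -0.39, and Etfa and Etfb had -0.32 and -0.31. Cycs, cytochrome c, had -0.04. Slc25a4, the heart ADP/ATP carrier, had -0.22, and Slc25a5, the general form, had 0.20, both with overlap.

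The 13 genes for regulators of this pathway all had a difference below 0, with a median of -0.13, and 4 did not overlap, against 49.7% and 4.93% of all genes. Ppargc1a, a coactivator of mitochondrial genes, was at 134, 130, 137 and 125 CPM in the Vdac2-low libraries and at 151, 151, 172 and 137.4 CPM in the Vdac2-high ones, with library 7 just below library 8. The others were Ppara, with -0.38, Esrrb, with -0.48, and Nrf1, with -0.17. Of 50 assembly factors tested from a list of 51, 28 were below 0 and 22 above, with a median of -0.03, 5 below without overlap and 1 above. For all genes the shares were 49.7% below 0, 4.93% below without overlap and 7.16% above, so that the split of the assembly factors by sign was near the background. The 7 mitochondrially encoded subunits that passed the filter, of 13 listed, had a median of -0.03 and no separation. Their median was 0.07 within the WT label and -0.16 within the KO label. Of these 7, mt-Co1 was between 40430 and 55180 CPM in the 8 libraries, while the 6 that did not pass had almost no counts. Between the labels, edgeR called 0 genes of these 4 lists and 0 had an unadjusted p under 0.05. DESeq2 and voom also called 0.

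Markers of cell types moved with the sets. In this tissue fewer cells of a type and less RNA per cell cannot be told apart. Of 12 cardiomyocyte markers, 11 were lower in the Vdac2-low libraries, with a list median of -0.21, and their sum ran from 71110 to 80190 CPM against 84190 to 95420 CPM. All 5 endothelial markers were lower too, with a median of -0.22 and sums of 479 to 594.5 CPM against 594.7 to 689 CPM. Nppa, the atrial natriuretic peptide, was the cardiomyocyte marker that was higher, at 157 to 1523 CPM against 72.8 to 104 CPM. All 8 fibroblast markers were higher, with sums of 2107 to 2210 CPM against 1286 to 1661 CPM, and all 6 macrophage markers, with 498 to 683 CPM against 295 to 449 CPM. The 4 atrial myocyte markers summed to 1.94 to 3.48 CPM in these 8 libraries, and Myl4 among them lay above without overlap in the Vdac2-low ones, with a difference of 0.31. The sums of the skeletal muscle, smooth muscle and pericyte, and erythroid lists overlapped between the sets. Of the 2 brown fat markers Ucp1 was at or near 0, and they summed to 18.5 to 26.9 CPM. The part of these markers in the differences of the subunit genes was not tested.

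Library 3 stood far below every other library in the subunit genes. It was the lowest of the 9 libraries in 81 of 84 members, against 37.4% of all genes, and the highest in 2, against 37.7%. The median member lay -1.48 on the log2 scale from the median of the other 8 libraries, or 2.78-fold lower, while the median of all genes was at -0.02. Summed over the members, library 3 was at 12500 CPM and the others between 34380 and 44420 CPM. Scaled by total counts alone the median was 2.05-fold lower, and all genes shifted up by a median of 0.36, so that the level is relative to the scaling used.

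By complex, the median in library 3 was -1.44 for complex I, -1.75 for complex II, -1.49 for complexes III and V and -1.29 for complex IV. The widest gap was in Atp5a1, at 605 CPM in library 3 and 3605 to 5561 CPM in the others, 6.99-fold lower. Its partner in the catalytic head, Atp5b, was at 1627 CPM against 4082 to 5657 CPM, 2.81-fold lower. Cox7a1 was 5.03-fold lower, Cox6a2 4.03-fold and Cox8b 3.98-fold, and in complex I Ndufb10, at 82.2 CPM against 282 to 354 CPM, and Ndufv1, at 176 CPM against 597 to 822 CPM, were 3.99-fold and 3.92-fold lower.

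**Figure D4:**
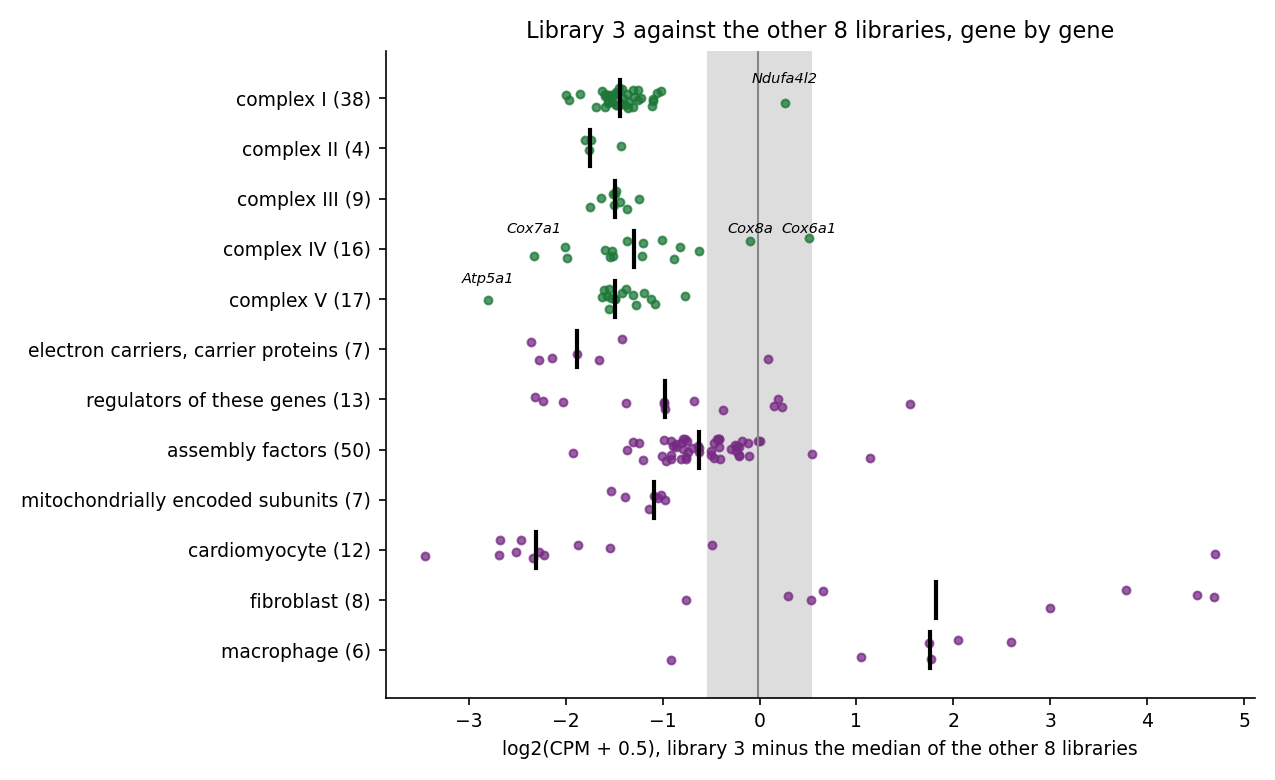
Level in library 3 minus the median of the other 8 libraries, on the log2(CPM + 0.5) scale, for each tested gene (points) of the 5 complexes, in green, and of other lists, in purple, with black bars at the medians. The grey band holds the middle 50% of all tested genes, the complexes have medians from -1.75 to -1.29, and Cox6a1, Cox8a and Ndufa4l2 lie inside or at the edge of the band.

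3 members were not lowest in library 3. Cox6a1 was at 63.9 CPM there and at 42.8 to 54.9 CPM in the other 8, the highest of all 9 libraries. Ndufa4l2, a relative of Ndufa4 known to be induced by low oxygen, was also highest, at 9.68 CPM against 6.58 to 9.02 CPM. Cox8a was at 50.3 CPM, inside the range of 48.1 to 65.7 CPM of the others, and its difference from their median was -0.10, or 0.31 under total counts alone. Ndufa4, which is counted here with complex I by its name but is known as a subunit of complex IV, was at 247 CPM against 588 to 712 CPM.

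Heart forms were lower relative to their general forms in library 3. The ratio of Cox6a2 to Cox6a1, per length, was between 13.8 and 19.1 in the other 8 libraries and 2.95 in library 3. For Cox8b to Cox8a it was between 12.1 and 14.9 in the 8 and 3.64 in library 3, and for Cox7a1 to Cox7a2 between 2.54 and 3.56 and 1.31. Expressed as a share of the pair, Cox6a2 made up 93.3% to 95.0% in the 8 libraries and 74.7% in library 3. The main and minor forms of subunit 4, Cox4i1 and Cox4i2, had a ratio of 93.2 in library 3 and of 114 to 148 elsewhere. Between the Vdac2 sets the ratio of Cox6a2 to Cox6a1 was 15.4, 13.8, 16.5 and 14.9 in libraries 1, 5, 7 and 9 and 17.6, 17.1, 19.1 and 19.1 in libraries 2, 4, 6 and 8. Those values did not overlap, and in the other 3 pairs the sets overlapped.

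**Figure D5:**
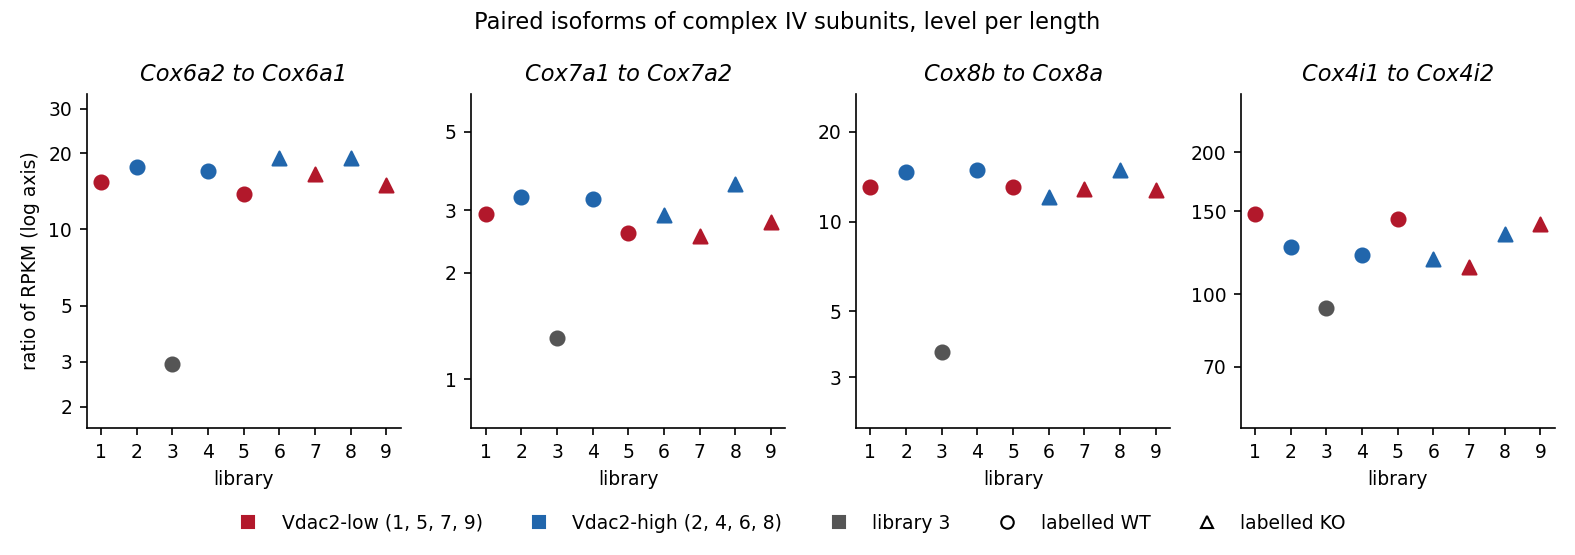
Ratio of RPKM between the paired forms of 4 complex IV subunits in each library (log axes, with a range of their own), with colour for the Vdac2 set and shape for the deposited label. Library 3 is lowest in all 4 pairs, at 2.95, 1.31, 3.64 and 93.2.

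Markers of cell types also stood apart in library 3. Its cardiomyocyte markers summed to 21820 CPM against 71110 to 95420 CPM in the others, with a list median of -2.31, and 11 of 12 were lowest there. Nppa was the exception at 3347 CPM. Its endothelial markers summed to 342 CPM against 479 to 689 CPM, with a median of -0.87, and 4 of 5 were lowest there. Its fibroblast markers summed to 9634 CPM against 1286 to 2210 CPM and its macrophage markers to 1566 CPM against 295 to 683 CPM. The skeletal muscle markers summed to 736 CPM against 64.3 to 234 CPM, of which Acta1 made up 729 CPM. Tnnt3 was also highest in library 3, but Myh1 was lowest and Tnni2 lay inside the range of the others. Markers of smooth muscle and pericytes summed to 878 CPM against 1168 to 1405 CPM. Rgs5, at 276 CPM, and Myh11 were lowest there, but Tagln and Pdgfrb were highest, at 84.3 and 103.5 CPM. Acta2 lay inside the range, and the list median was 0.61. The erythroid markers summed to 1020 CPM, inside the range of 590.3 to 2056 CPM of the others. Of the fibroblast and macrophage lists, 1 marker each went the other way, with Dcn at 454 CPM against 560.5 to 935 CPM and Cd163 at 18.7 CPM against 29.2 to 46.4 CPM. The carrier genes had a median of -1.88, the mitochondrially encoded subunits -1.09, the regulators -0.98 and the assembly factors -0.63 in library 3. The part of the markers in these levels was not tested. The study left out 1 WT library for RNA quality without naming it, so all 9 are kept here.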

How the data were processed

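Total RNA of left ventricle was depleted of ribosomal RNA and sequenced as stranded libraries with 50-base single-end reads. The submitters' processing notes name STAR 2.7.2c, featureCounts 1.6.3 and GRCm38, and the deposited table holds the authors' raw read counts per Ensembl gene. The strand setting is not given in the sources used here, so members that overlap genes on the other strand are less certain. Depth ran from 27345052 to 44673988 counts, so that 3 counts equal 0.0693 to 0.114 CPM, a floor for counting error only. No 2 libraries agreed within sampling noise (lowest chi-square per gene 7.35).

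Symbols and exon lengths came from GENCODE M21, and 52489 of 52636 identifiers had a symbol. With edgeR 4.0.16 in R 4.3.3, filterByExpr, TMM scaling and the robust quasi-likelihood test were applied to all genes, KO label minus WT label, with Benjamini-Hochberg adjustment. Between the Vdac2 sets, mean log2(CPM + 0.5) values were subtracted. Alternatives used DESeq2 1.42.0 and limma 3.58.1, other scalings, filters and pseudocounts, and libraries left out. The test was checked on simulated counts. A member fixed by role is counted but not reported by name here. Members and gene lists were chosen with earlier results of these data known. Genes were named by role, isoform, X linkage, the 5 lowest and 5 highest differences and the 3 smallest p-values, with other genes of the lists named by level. Members named for their level, shared sequence or lack of overlap, and Nppa, were named after their values were seen.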

Additional observations from a re-analysis of the deposited data

Results flagged for a closer look

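In each of 90 series of values, a summed complex or a named member within one label, the distance of the most extreme library from its nearest neighbour was set against the whole range, and it passed Dixon's 95% critical value in 36. Chance flags about 1 in 20, and the members share these libraries, so the 36 are not separate events. In 35 of them library 3 was the lowest of those labelled WT. The ratio was 0.823 for the summed level of complex I, 0.78 for complex II, 0.772 for complex III, 0.823 for complex IV and 0.821 for complex V.

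Among complex I genes the ratio was 0.808 for Ndufv1, 0.739 for Ndufs1, 0.785 for Ndufs7, 0.819 for Ndufa4, 0.742 for Ndufa1, 0.764 for Ndufb11 and 0.828 for Ndufa11. It was 0.802 for Sdha, 0.795 for Sdhb and 0.802 for Sdhd in complex II, and 0.775 for Uqcrfs1, 0.819 for Cyc1, 0.723 for Uqcrc1 and 0.977 for Uqcrb in complex III. In complex IV it was 0.854 for Cox4i1, 0.887 for Cox5a, 0.794 for Cox5b, 0.837 for Cox6a2, 0.798 for Cox6b1, 0.727 for Cox7a1, 0.74 for Cox7a2, 0.834 for Cox7a2l, 0.774 for Cox7b and 0.826 for Cox8b. In complex V it was 0.816 for Atp5a1, 0.833 for Atp5b, 0.788 for Atp5c1, 0.87 for Atp5g1, 0.736 for Atp5g3 and 0.745 for Atp5l. In the other, Cox7a2l was highest in library 9 among the libraries labelled KO, with a ratio of 0.911 and 129 CPM against 101 to 103 CPM.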

How the results depend on the processing

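The count of 0 members called between the labels held under every alternative run, and the median fold change of the members, 0.27, ranged from 0.07 without library 3 to 0.35 without library 4, and was 0.08 under voom with library weights. Between the Vdac2 sets the median was below 0 for the members and for each complex under all alternatives, but close to 0 for complex IV, at -0.003 without library 1, -0.01 without library 8, -0.009 under total counts alone and -0.009 within the KO label. Under total counts alone complexes I, II, III and V were at -0.03, -0.15, -0.08 and -0.04, and complexes I and V were at -0.05 and -0.06 without library 8, complex I at -0.05 without library 7, complex V at -0.06 without library 1 and all members at -0.12 without library 9. The 8 members without overlap (4.93% of all genes) became 5 with no filter on low counts (2.37%), 2 under total counts alone (2.65%), 40 within the libraries labelled WT, 2 against 2 (23.3%), and 24 within those labelled KO (17.1%), and 8 to 32 with 1 library left out, the highest without library 9 (8.3%). With library 3 added to the Vdac2-low libraries the median was -0.36 for the members, -0.37 for complex I, -0.54 for complex II, -0.42 for complex III, -0.36 for complex IV and -0.38 for complex V. In library 3 the median was -1.04 under total counts alone. Scaling by total counts, and all alternatives for library 3, were chosen after seeing the data. No paired analysis was possible because the labels give no shared replicate numbers. Depth limits what can be said of Cox6b2, Cox7b2, Cox8c and Atp5g2.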

Other observations

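Assembly factors, which build the complexes and are not part of them, moved less than the subunits in library 3. Their median was -0.63, and 43 of the 50 tested were lowest there, against 37.4% of all genes. The 2 that were highest there belong to complex IV. Cox19, a copper-handling factor, had a difference of 1.14 between library 3 and the median of the other 8 and of 0.30 between the Vdac2 sets, where it was the assembly factor above without overlap. Cox18, which inserts a mitochondrially encoded subunit into the membrane, had 0.55 and 0.10. Those below without overlap between the Vdac2 sets were Cox10, with -0.30, Ndufaf6, with -0.21, Cox15, with -0.21, Taco1, with -0.15, and Coa7, with -0.11. These genes were named after their values were seen. Pprc1, a relative of Ppargc1a, was at 20.6 CPM in library 3 and at 4.53 to 7.87 CPM in the other 8, while Ppargc1a was at 28.7 CPM there and at 125 to 172 CPM elsewhere.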
